A study of Mus musculus with 2 samples.

Results

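Hox genes encode homeodomain transcription factors, and the protein-coding members of the 4 mouse clusters were read here across RNA of the mammary gland. Members were taken by name, as Hox followed by a cluster letter from a to d and a paralog number, and 39 of the 21474 protein-coding genes in the deposited gene tables qualified (43346 genes of all kinds were listed). Of these, 11 lie in the Hoxa cluster on chromosome 6, 10 in Hoxb on chromosome 11, 9 in Hoxc on chromosome 15 and 9 in Hoxd on chromosome 2. Glands were from inbred C57BL/6J animals aged 8 weeks, and the labels describe males and females pooled. No genetic change or treatment is labelled, and nothing in the labels gives the reproductive state, the number of animals pooled or which gland was dissected. Polyadenylated RNA over 200 nt was sequenced, along with spike-in RNA standards, from both ends at 76 nt in 2 libraries, which are biological replicates 1 and 2 of a single group. The labels name no contrast, so the data answer which Hox genes the gland expressed, at what level, and how far apart the libraries lay. No p-value is given, and every interval covers counting error only.

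Within a Hox cluster all members point the same way, and a gene's place along the cluster matches where it acts along the body. Genes at the 3′ end (low paralog numbers) act towards the head, and those at the 5′ end (high numbers) towards the tail and the ends of the limbs. Genes with the same number in different clusters are paralogs that descend from a common ancestor and share much of their function. Connective tissue cells of adult skin and fat keep a Hox pattern typical of the site they come from. In the mouse mammary gland, the group 9 genes Hoxa9, Hoxb9 and Hoxd9 are together needed for growth of the gland in pregnancy, and Hoxc8 takes part in forming the embryonic mammary placodes.

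Promoter sequences show the members on which the results turn. Hoxa9 and Hoxd4 were far lower in replicate 1 than in replicate 2, Hoxd8 had a similar count in both, and Hoxd13 had no fragment in either. Each line gives the 250 bases before a start site listed by RefSeq on GRCm38.p6 (mm10), read 5′ to 3′ on the gene's own strand, and each window lies outside the exons annotated on that strand. Capitals mark matches, on either strand, to the TATA box TATAAA, the CCAAT box CCAAT, and the Hox-Pbx composite motif TGATTNAT. The windows of Hoxa9 and Hoxd4 lie inside the annotated spans of these genes, which have other starts upstream.

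Hoxa9 (chr6:52227371-52227620, minus strand): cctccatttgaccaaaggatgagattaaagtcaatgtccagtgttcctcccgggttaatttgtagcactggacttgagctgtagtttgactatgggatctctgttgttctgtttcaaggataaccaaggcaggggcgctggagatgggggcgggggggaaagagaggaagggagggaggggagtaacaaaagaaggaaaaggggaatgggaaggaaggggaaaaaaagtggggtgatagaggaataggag
Hoxd4 (chr2:74721728-74721977, plus strand): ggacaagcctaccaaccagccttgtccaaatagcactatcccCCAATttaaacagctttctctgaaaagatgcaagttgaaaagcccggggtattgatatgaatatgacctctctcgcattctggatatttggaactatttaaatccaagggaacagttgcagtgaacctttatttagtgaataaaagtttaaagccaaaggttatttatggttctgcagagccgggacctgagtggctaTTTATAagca
Hoxd8 (chr2:74704365-74704614, plus strand): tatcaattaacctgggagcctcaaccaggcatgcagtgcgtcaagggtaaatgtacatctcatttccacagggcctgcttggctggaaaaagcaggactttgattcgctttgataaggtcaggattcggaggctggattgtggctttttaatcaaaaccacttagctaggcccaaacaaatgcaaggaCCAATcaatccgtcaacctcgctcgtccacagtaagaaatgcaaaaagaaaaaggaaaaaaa
Hoxd13 (chr2:74667975-74668224, plus strand): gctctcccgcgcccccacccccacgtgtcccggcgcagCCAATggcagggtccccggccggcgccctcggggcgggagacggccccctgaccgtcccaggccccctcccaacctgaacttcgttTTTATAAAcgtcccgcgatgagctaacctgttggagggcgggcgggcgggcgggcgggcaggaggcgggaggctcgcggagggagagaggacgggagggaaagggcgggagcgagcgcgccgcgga

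The windows before Hoxa9 and Hoxd4 held 3 CpG dinucleotides each, at a GC content of 49.6% and 40.4%. The window before Hoxd8 held 6 and that before Hoxd13 held 31, at 44.4% and 74.4% GC. The Hoxa9 window held none of the 3 motifs. In Hoxd4 the TATA match, on the opposite strand, ended 5 bases before the listed start, and in Hoxd13 overlapping matches on both strands lay from 126 to 119 bases before it. RefSeq windows matched 22 of the 39 Hox genes, with 24 starts. A CCAAT match was present in 14 of these 24 windows, against 33.9% of 32841 windows of all genes. TATAAA was present in 4 of 24, against 12.4% of all windows, and TGATTNAT in 2 of 24, before Hoxa2 and Hoxd11, against 2.83%. Hox windows had a median of 12.5 CpG dinucleotides, against 6 over all windows. The 15 windows of Hox genes with a mean of at least 1 TPM had a median of 12 (3 to 28), and the 7 windows of Hox genes listed at 0 TPM in both libraries had a median of 13 (2 to 35). The CpG ranges of expressed and undetected Hox genes overlapped over most of their length.

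Depth and tissue makeup set the frame for these values. Summed expected counts (fragments assigned to genes, not always whole) were 56323489 in replicate 1 and 42400470 in replicate 2, and levels are in TPM, the transcripts of a gene scaled for its length and for the size of the library. Markers of the labelled tissue were present. All 8 luminal epithelial markers and all 7 basal markers stood above 1 TPM in both libraries, summing to 989 and 1726 TPM and to 683 and 543 TPM for replicates 1 and 2, and all 8 white adipocyte markers did so at 19332 and 34760 TPM. Of this last sum, Cfd (adipsin) took 13596 and 29051 TPM, and the other 7 markers together 5736 and 5709 TPM. Of the 8 luminal markers, 6 were lower in replicate 1, but Elf5 (40.3 and 21.6 TPM) and Prlr (58.0 and 26.9 TPM) were higher there. The libraries were not alike in their other tissue. All 9 skeletal muscle markers were higher in replicate 1, summing to 28389 TPM there and 13.4 TPM in replicate 2, and all 5 keratinocyte markers with a mean of at least 1 TPM were higher in replicate 1. The 7 keratinocyte markers summed to 103 TPM and 6.51 TPM, with no fragment for Flg and Krt2. The share of TPM on mitochondrial genome transcripts was 17.4% in replicate 1, against 4.28% in replicate 2. In bulk tissue, fewer cells of a type and less RNA per cell cannot be told apart.

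The gland expressed Hox genes from the anterior through the paralog 10 genes, and almost nothing beyond them. At least 1 TPM in both libraries was reached by 25 of the 39 genes (64.1%), against 58.3% of all protein-coding genes. These were 8 of 11 genes in Hoxa, 7 of 10 in Hoxb, 6 of 9 in Hoxc and 4 of 9 in Hoxd. Hoxa2, at 0.98 TPM in replicate 1 and 1.29 TPM in replicate 2, lay just under that limit, as did Hoxb9 at 0.85 and 0.68 TPM. By paralog number, all 11 genes of groups 5 to 8 were detected, 9 of 12 in groups 1 to 4 and 5 of 16 in groups 9 to 13. All Hox genes together took 133 TPM in replicate 1 and 313 TPM in replicate 2, a mean of 223 ± 127 (SD, n = 2). Over the 26 Hox genes averaging 1 TPM or more, the 25 above and Hoxa2, the median stood at 3.06 TPM in replicate 1 and 7.61 TPM in replicate 2. Over all protein-coding genes past that limit it was 13.7 and 14.3 TPM.

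Undetected members lay at the ends of the clusters. Of the 39 genes, 9 had no more than 3 fragments in either library, which is treated here as the floor of detection, and 8 of them had none at all. The 8 were Hoxb1, a hindbrain gene at the 3′ end of its cluster, and Hoxa11, Hoxa13, Hoxb13, Hoxc12, Hoxd11, Hoxd12 and Hoxd13 at the 5′ ends, genes known for the distal limb, the urogenital tract and the tail. A count of 0 allows up to 3 fragments, which corresponds to 0.0848 TPM in replicate 1 and 0.119 TPM in replicate 2 for Hoxc12, where this limit was highest among the 8. Hoxd1 had 0 fragments in replicate 1 and 1 in replicate 2. Hoxc11 had 0 and 7 fragments, and Hoxc13, which is needed for hair shafts and nails in the mouse, had 4 and 0. Hoxd10 was covered by 41 fragments in replicate 1 (0.59 TPM) and 10 in replicate 2 (0.20 TPM).

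**Figure D1:**
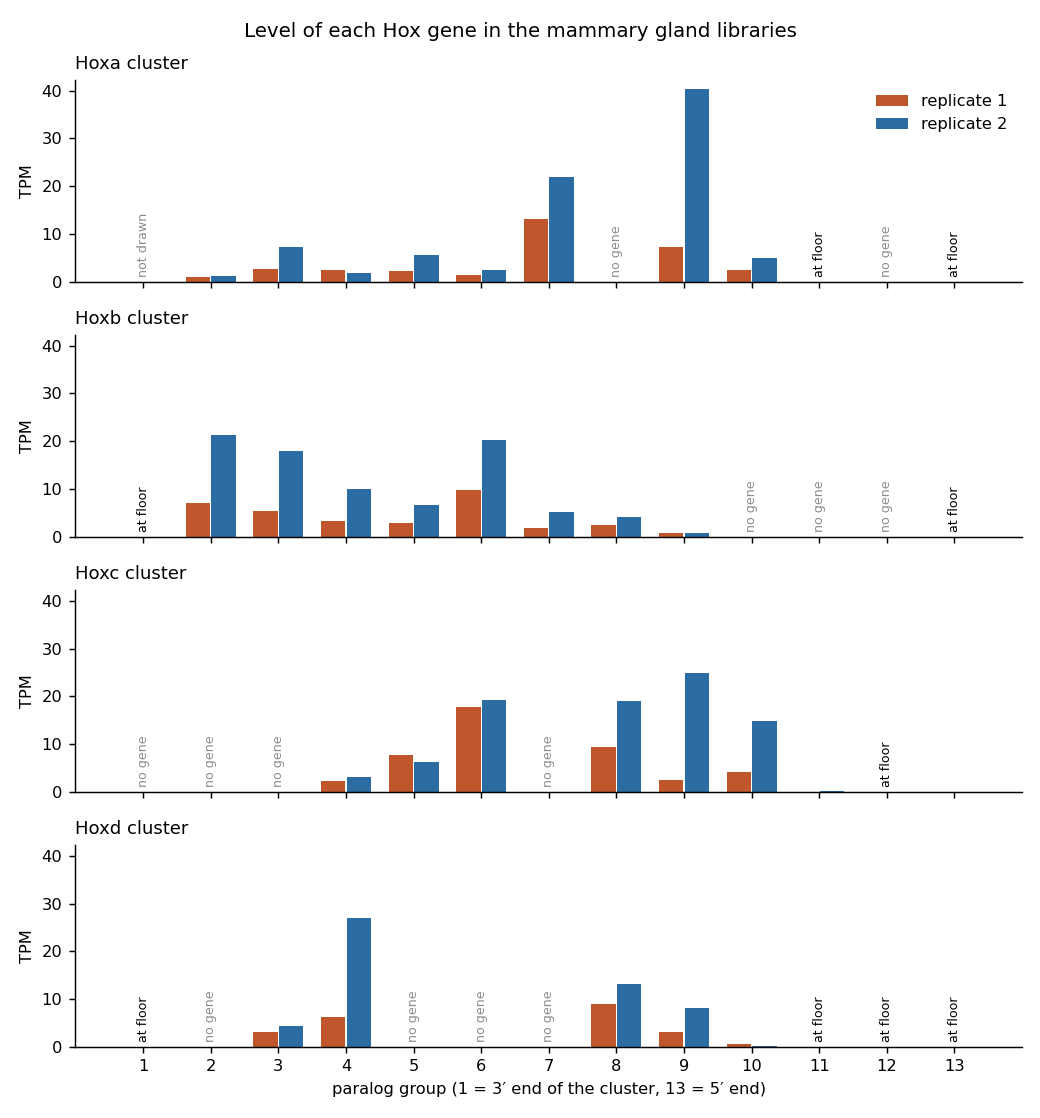
TPM of the Hox genes, 1 of which is not drawn (vertical axis), by paralog group (horizontal axis) in the 4 clusters, with replicate 1 as the left bar and replicate 2 as the right bar of each pair; each bar is 1 library, so there is no error bar, and genes with no more than 3 fragments in either library are marked as at the floor. Expressed genes reach up to group 10, with Hoxa9 in replicate 2 the tallest at 40.3 TPM and Hoxc6 the tallest in replicate 1 at 17.8 TPM.

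Among the anterior genes of groups 1 to 4, Hoxd4 and the Hoxb genes carried most of the signal. Hoxd4, which shapes the neck vertebrae in the mouse (chromosome 2, 74711929 to 74729160 on mm10 by GENCODE M21), stood at 6.17 TPM in replicate 1 and 26.9 TPM in replicate 2. Hoxb2 and Hoxb3, both hindbrain patterning genes, stood at 7.07 and 21.3 TPM and at 5.34 and 17.9 TPM, and Hoxb4, also studied in blood stem cells, at 3.38 and 9.93 TPM. All 4 genes were lower in replicate 1. Hoxa3, needed for the mouse thymus and parathyroid, stood at 2.66 TPM in replicate 1 and 7.19 TPM in replicate 2, and Hoxd3 at 3.06 and 4.43 TPM. Hoxa4 stood at 2.43 and 1.77 TPM, and Hoxc4 at 2.18 and 3.08 TPM. Both of these differed by less than 1 TPM between the libraries. The summed level of groups 1 to 4 was 35.2 TPM in replicate 1 and 95.2 TPM in replicate 2.

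The central genes of groups 5 to 8, which pattern the thorax, differed least between the libraries as a range. Hoxc6, a gene of the rib-bearing region (chromosome 15, 102998257 to 103011881), stood at 17.8 TPM in replicate 1 and 19.2 TPM in replicate 2, a mean of 18.5 ± 1.03 TPM (SD, n = 2). Hoxa7 stood at 13.04 and 21.9 TPM, Hoxb6 at 9.70 and 20.4 TPM, Hoxc8 at 9.30 and 18.97 TPM and Hoxd8 at 9.01 and 13.2 TPM. With Hoxc6, these were the 5 highest Hox genes of replicate 1. Hoxc5 stood at 7.68 TPM in replicate 1 and 6.14 TPM in replicate 2. Hoxb5 stood at 2.88 and 6.58 TPM, Hoxa5, which acts in the mouse lung and has been linked to the nursing gland, at 2.28 and 5.63 TPM, Hoxb7 at 1.89 and 5.17 TPM, Hoxb8 at 2.35 and 4.17 TPM, and Hoxa6 at 1.47 and 2.46 TPM. Groups 5 to 8 summed to 77.4 TPM in replicate 1 and 124 TPM in replicate 2.

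The posterior genes of groups 9 and 10 that averaged 1 TPM or more were all lower in replicate 1. Hoxa9 (chromosome 6, 52223100 to 52231089), a member of the trio needed for gland growth, stood at 7.36 TPM in replicate 1 and 40.3 TPM in replicate 2, with 354 and 1212 fragments. Hoxc9, a thoracic motor neuron gene that is also used as a marker of subcutaneous white fat against brown fat in mice (chromosome 15, 102976439 to 102985099), stood at 2.43 TPM and 24.9 TPM, with 227 and 1652 fragments. Hoxd9 stood at 3.07 TPM in replicate 1 and 8.02 TPM in replicate 2. All 3 were lower in replicate 1, whereas the fourth paralog, Hoxb9, was near 1 TPM in both, with 78 and 49 fragments. Of the group 10 genes, which suppress rib formation in the lumbar region, Hoxc10 stood at 4.22 and 14.9 TPM and Hoxa10 at 2.37 and 4.93 TPM. Hoxd10, under the 1 TPM limit, went the other way, with a log2 count ratio, replicate 1 over replicate 2, of 1.63 (0.60 to 2.79). Group 9 as a whole summed to 13.7 TPM in replicate 1 and 73.9 TPM in replicate 2, or 10.3% and 23.6% of the Hox total.

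**Figure D2:**
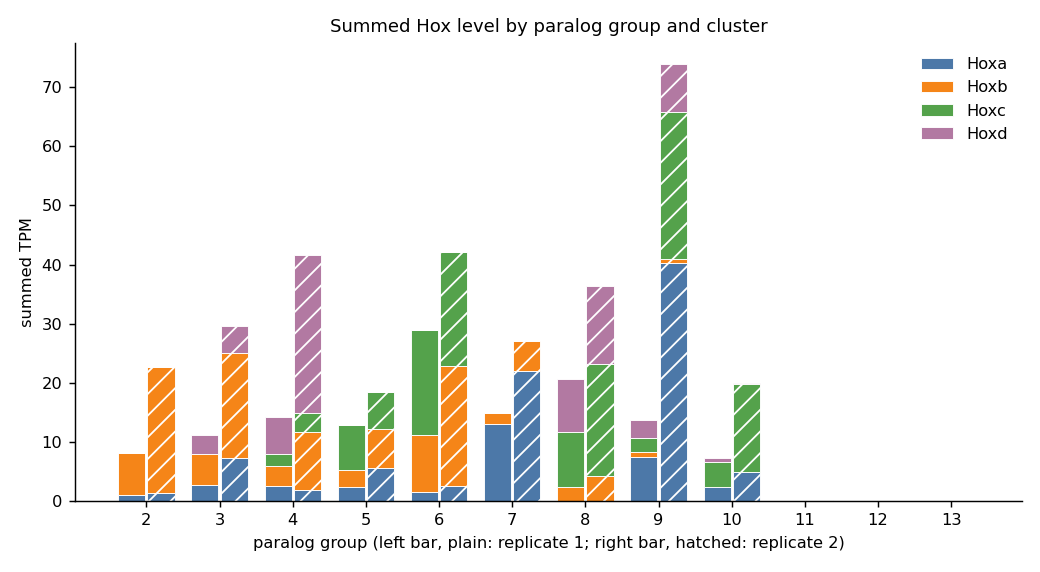
Summed TPM of the Hox genes (vertical axis) by paralog group from 2 to 13 (horizontal axis), with colours for the clusters, replicate 1 as the plain left bar and replicate 2 as the hatched right bar of each pair. Group 6 is the tallest in replicate 1 at 28.9 TPM, and group 9 the tallest in replicate 2 at 73.9 TPM; groups 11 to 13 are at or near 0 in both.

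The balance along the clusters therefore differed between the libraries. Groups 5 to 8 made up 58.0% of the Hox total in replicate 1 and 39.6% in replicate 2, a mean of 48.8 ± 13.02% (SD, n = 2). Groups 9 to 13 made up 15.7% and 30.03%, and groups 1 to 4 made up 26.4% and 30.4%. The balance between clusters moved less. Hoxa took 25.9% of the total in replicate 1 and 27.8% in replicate 2, Hoxb 25.1% and 27.5%, Hoxc 32.7% and 27.9%, and Hoxd 16.4% and 16.8%.

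The order of the genes differed at the top. All 5 highest Hox genes of replicate 1 belonged to groups 5 to 8, but of the 5 highest in replicate 2, which were Hoxa9, Hoxd4, Hoxc9, Hoxa7 and Hoxb2, only Hoxa7 did. The lists of 10 highest genes shared 8 members. Hoxc9 was number 18 in replicate 1 and number 3 in replicate 2. Set against its cluster neighbour Hoxc8, the TPM of Hoxc9 was 0.261 times as high in replicate 1 and 1.31 times as high in replicate 2, and that of Hoxa9 against Hoxa7 was 0.564 and 1.84 times as high. The Spearman rho of TPM between the libraries was 0.78 over the 26 Hox genes that averaged 1 TPM or more. These points share 2 libraries and are not independent.

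Counts were compared directly because they carry the counting error. For each gene, the ratio of rounded expected counts, replicate 1 over replicate 2 and scaled by total gene counts, was given with its 95% Clopper-Pearson interval, and a gene was called beyond 2-fold where the whole interval lay beyond 2-fold. A negative log2 ratio means a lower count in replicate 1. Of the 26 Hox genes with a mean of at least 1 TPM, 11 (42.3%) were beyond 2-fold, against 17.6% of the 13272 protein-coding genes tested. All 11 were lower in replicate 1, a direction in which 8.66% of all genes were called, and 0 Hox genes were called higher in replicate 1, where 8.97% of all genes were. By the sign of the ratio alone, 23 of the 26 were lower in replicate 1, against 47.9% of all genes. With the trend over GC content removed this was 20 of 26 (50% of all genes, a share the removal itself sets). It was 22 (39.9%) with mitochondrial genes and the 9 skeletal muscle markers, called muscle genes here, left out of the totals. Other muscle transcripts stayed in. With spike-in totals, which shift every gene alike, it was 26 (79.0%). The median log2 ratio was -1.16 over the Hox genes and 0.05 over all genes tested. On the log2(TPM + 1) scale the median difference of replicate 1 minus replicate 2 was -0.96 for the Hox genes and -0.06 for all genes.

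**Figure D3:**
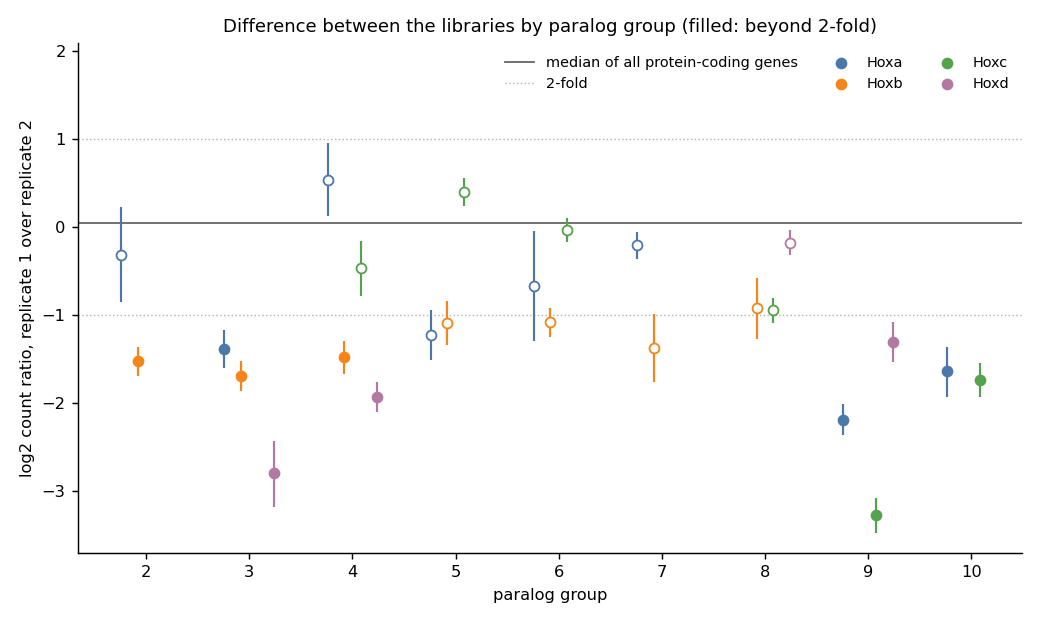
Log2 ratio of scaled counts, replicate 1 over replicate 2 (vertical axis), of 25 of the 26 Hox genes with a mean of at least 1 TPM by paralog group (horizontal axis), with 95% counting intervals; filled points lie wholly beyond 2-fold, and the solid line is the median of all protein-coding genes at 0.05. Filled points fall in groups 2 to 4 and in groups 9 and 10, and all points of groups 5 to 8 are open.

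The calls were not spread evenly along the clusters. In groups 1 to 4, 6 of 10 tested genes were beyond 2-fold, in groups 5 to 8 it was 0 of 11, and in groups 9 to 13 it was 5 of 5. Of all genes, 17.6% were called, and 8.66% were called lower in replicate 1. Hoxc9 had the ratio furthest from 0, at -3.27 (95% interval -3.48 to -3.07), which is a 9.67-fold lower scaled count in replicate 1 (interval 8.41 to 11.2). Among the 1150 genes of the whole table called in that direction it ranked 62. Hoxd3 followed at -2.79 (-3.18 to -2.42), Hoxa9 at -2.19 (-2.36 to -2.01) and Hoxd4 at -1.93 (-2.10 to -1.75). The counts of Hoxd3 and Hoxd4 are less certain, since both overlap another gene model, as given below. The other called genes were Hoxc10, Hoxb3, Hoxa10, Hoxb2, Hoxb4, Hoxa3 and Hoxd9, from -1.74 to -1.30. Of these, Hoxa3 and Hoxb3 had counts that were not all whole. The log2 ratio of Hoxa10 was -1.64 by counts and -1.06 by TPM, and the transcript with its largest share differed between the libraries. With the GC trend removed, the calls were 6 of 10, 2 of 11 and 4 of 5 over the same 3 ranges. All of these were lower in replicate 1, against 6.62% of all genes. Hoxa5 and Hoxc8 were added and Hoxd9 was lost at -0.28. The 0 of 11 depended on the limit and the scaling, and every Hox gene that another setting added lay in groups 5 to 8. There it was 2 of 11 with edgeR's TMM factors, against 9.98% of all genes called lower in replicate 1. It was 3 with DESeq2 size factors (11.2%), 5 at a 1.5-fold limit (19%), 5 by the TPM ratio (15.4%) and 6 with spike-in totals (31.8%). The 6 were Hoxa5, Hoxb5, Hoxb6, Hoxb7, Hoxb8 and Hoxc8.

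Genes of the central groups ranged from nearly equal scaled counts to ratios past 2-fold whose intervals reached back within it. Hoxc6, with 1019 and 784 fragments, had a log2 count ratio of -0.03 (-0.17 to 0.10). Hoxd8, with 916 and 778 fragments, had -0.17 (-0.31 to -0.03), and Hoxa7 had -0.20 (-0.36 to -0.05). With the GC trend removed these last ratios had the other sign, at 0.12 for Hoxd8 and 0.18 for Hoxa7. That of Hoxb8 also changed sign, from -0.92 (-1.27 to -0.58) to 0.15 (-0.19 to 0.50). Hoxb7, at -1.37 (-1.76 to -0.99), Hoxa5, at -1.22 (-1.51 to -0.94), Hoxb5, at -1.09 (-1.34 to -0.84), and Hoxb6, at -1.08 (-1.24 to -0.92), were lower by more than 2-fold but not over their whole intervals. Among the genes with a positive ratio, Hoxa4 had 0.54 (0.13 to 0.96) and Hoxc5 had 0.41 (0.25 to 0.56).

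Which transcript carried a gene differed between the libraries for several members. Of the 39 genes, 15 had 1 annotated transcript and 24 had more, and 19 of these 24 passed 1 TPM in both libraries. The transcript with the highest isoform percent, its share of the gene's TPM, was the same in both for 12 of the 19. The same share over all genes was not taken, so whether this count is particular to Hox genes was not tested. In Hoxc9 it was Hoxc9-201 at 100% in both, and in Hoxa9 it was Hoxa9-202 at 77.6% in replicate 1 and 83.9% in replicate 2. The 7 that differed were Hoxa7, Hoxa10, Hoxb8, Hoxc4, Hoxd3, Hoxd4 and Hoxd8. Some rest on few fragments: in replicate 1 the leading Hoxb8-202 was given 28.5 and the leading Hoxa10-204 was given 35.7. In Hoxd8, the transcript Hoxd8-201 took 92.3% in replicate 1 and 43.1% in replicate 2, and Hoxd8-202 took 7.68% and 56.9%. In Hoxd4, Hoxd4-203, annotated as a processed transcript, took 50.03% and 36.3%, and the coding Hoxd4-202 took 36.5% and 61.8%.

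Hoxd3 shows how transcript choice bears on the level. Its expected counts were 71.5 fragments in replicate 1 and 375 in replicate 2, but its TPM values were 3.06 and 4.43. In replicate 1, 86.8% of its TPM lay on Hoxd3-205, a transcript of 415 bases that was given 23.5 fragments, and 13.2% on Hoxd3-203 of 2968 bases. In replicate 2, 100% lay on Hoxd3-203. The effective length of the gene was 541 bases in replicate 1 and 2754 bases in replicate 2. By TPM its log2 ratio was -0.53, inside the 2-fold limit, whereas by counts it was -2.79.

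Several members overlap other genes in their annotated spans, introns included. The expected counts of Hoxa2, Hoxa3, Hoxb3, Hoxd3 and Hoxd4 were not all whole, so these are less certain, while those of the Hoxc genes were whole. On the same strand, the spans of Hoxa4, Hoxa5 and Hoxa6 lie inside or across Hoxa3, those of Hoxc6, Hoxc8, Hoxc9 and Hoxc10 meet Hoxc5, and Hoxd3 overlaps Hoxd4. Gm28308, a protein-coding model spanning Hoxa2 to Hoxa6, was listed at 1.07 TPM in replicate 1 and 2.83 TPM in replicate 2. Gm28230, across Hoxd3 and Hoxd4, was listed at 1.58 and 1.41 TPM. It took 226 and 144 fragments, against 71.5 and 375 for Hoxd3, so the ratio of Hoxd3 may depend on how fragments were shared. How fragments were shared among overlapping genes is set by the authors' quantification, and whether it used the strand is not given in the sources used here.

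Reads over exon junctions were deposited in a table of the whole series on mm9, in which each junction carries 2 numbers coded R1 and R2. The meaning of these codes is not stated, and they are not read here as the replicates. Junctions were matched to annotated Hox introns by chromosome, strand and exact intron length, with the spacing between introns of a cluster required to match. Of 97 annotated introns, 53 were matched, in 29 of the 39 Hox genes. The 10 genes without a junction were Hoxd1, Hoxc13 and the 8 with no fragment. The matched junctions held 659 reads coded R1 and 1379 coded R2, while all junctions of the table held 20291944 and 15601699.

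Hoxc9 had the most junction reads of any Hox gene, over 1 intron of 1704 bases, with 55 reads coded R1 and 335 coded R2. Scaled by the table totals, its log2 ratio of R1 over R2 was -2.99 (95% interval -3.42 to -2.57). The next most reads lay in Hoxd4 (68 and 146), Hoxa7 (73 and 119), Hoxc6 (69 and 114) and Hoxc5 (45 and 76). The scaled log2 ratios of Hoxa7, Hoxc6 and Hoxc5 were -1.08, -1.10 and -1.14. Hoxb4 had 23 and 85 reads, Hoxa9 had 25 and 80, and Hoxb6 had 29 and 81. Not all genes lay this way. Hoxc8 had 53 and 39 reads, a scaled log2 ratio of 0.06 (-0.56 to 0.70), and Hoxd8 had 63 and 15, a ratio of 1.69 (0.86 to 2.61).

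The clusters also hold non-coding RNAs, most of which were not detected. Between the outermost Hox genes lie 45 other annotated genes, some of them protein-coding. Of the 45, 30 had no fragment in either library and 5 reached a mean of 1 TPM, among them the protein-coding Gm28308 and Gm28230. Many entries without a fragment are annotated as miRNA or miscellaneous RNA, and the RNA was selected for length over 200 nt. Hotairm1, an antisense RNA of the Hoxa cluster that is known from human myeloid cells, stood at 2.55 TPM in replicate 1 and 6.46 TPM in replicate 2, on 23 and 64 fragments. Hoxb3os, antisense across Hoxb2 and Hoxb3, stood at 1.78 and 7.22 TPM with 151 and 430 fragments, a log2 count ratio of -1.92 (-2.20 to -1.65). Both were lower in replicate 1 beyond 2-fold, as were the Hoxb2 and Hoxb3 genes that Hoxb3os overlaps. Hoxd3os1, antisense across Hoxd3, Hoxd4 and Hoxd8, stood at 2.61 and 1.37 TPM. Hotair, which lies in the Hoxc cluster and acts on chromatin, had no fragment in either library, and neither did Hoxa11os or Hottip, the last of which lies just outside the Hoxa cluster.

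The clusters also encode miRNAs that target Hox mRNAs. The RNA was selected for length over 200 nt, so mature miRNAs were not measured, and the genes Mir10a, Mir10b, Mir196a-1, Mir196a-2, Mir196b and Mir615 were listed at 0 TPM. The mature 5p sequences in RefSeq on GRCm38.p6 are given because 2 of the miRNAs lie within Hox genes called here, with the seed, bases 2 to 8, in capitals.

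mmu-miR-10a-5p (Hoxb cluster): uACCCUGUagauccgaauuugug
mmu-miR-10b-5p (Hoxd cluster): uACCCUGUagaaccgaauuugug
mmu-miR-196a-5p (Hoxb and Hoxc clusters): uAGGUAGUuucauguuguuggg
mmu-miR-196b-5p (Hoxa cluster): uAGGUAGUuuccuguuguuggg

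The miR-10 pair shares the seed ACCCUGU and the miR-196 set the seed AGGUAGU. Mir10b lies within the spans of Hoxd3 and Hoxd4, and Mir196b within that of Hoxa9, and all 3 of these Hox genes were lower in replicate 1. Mir196a-2 and Mir615 lie within the span of Hoxc5, which went the other way, with a log2 count ratio of 0.41 (0.25 to 0.56).

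Proteins that work with Hox factors on DNA were all expressed. Hox proteins bind with partners of the Pbx family and of the Meis and Prep (Pknox) families. All 9 of these genes passed 1 TPM in both libraries, led by Pbx2 at 37.7 TPM in replicate 1 and 65.7 TPM in replicate 2, Meis3 at 22.6 and 56.0 TPM, Pknox1 at 14.4 and 15.4 TPM, and Meis2 at 9.30 and 7.94 TPM. Of the 9, 7 had a lower scaled count in replicate 1 (5 with mitochondrial and muscle genes left out of the totals), with a median log2 ratio of -0.18. With 17.6% of all genes called, 1 of the 9 was. This was Pknox2, at 12.7 TPM in replicate 1 and 4.56 TPM in replicate 2, higher in replicate 1 with a log2 count ratio of 2.22 (2.01 to 2.44).

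Chromatin regulators of the clusters were expressed over a range that overlapped that of the Hox genes. Polycomb complexes keep Hox genes silent, and all 21 Polycomb genes read here passed 1 TPM in both libraries, summing to 451 TPM in replicate 1 and 769 TPM in replicate 2. The highest were Phf1 at 49.7 and 134 TPM, Phc2 at 50.9 and 94.2 TPM, Cbx6 at 37.3 and 83.0 TPM, Pcgf2 at 34.5 and 83.2 TPM and Cbx7 at 41.4 and 70.6 TPM. Of the 21 genes, 2 were beyond 2-fold and lower in replicate 1, Phf1 among them, against 8.66% of all genes, and with the GC trend removed 1 was, against 6.62%. Ezh2, the methyltransferase of the repressive mark, stood at 4.6 and 2.93 TPM, below its paralog Ezh1 at 40.6 and 32.3 TPM. Of 11 activators and boundary genes, the 8 other than the Cdx genes passed 1 TPM in both, among them Men1 at 31.5 and 63.8 TPM and the methyltransferase Kmt2a at 18.2 and 28.4 TPM. Kdm6b, which removes the repressive mark, was the 1 gene of these 8 beyond 2-fold, against 17.6% of all genes, at 6.08 TPM in replicate 1 and 19.3 TPM in replicate 2. Cdx1, Cdx2 and Cdx4, which switch on Hox genes in the embryo, had no fragment in either library.

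Other transcription factors of position, of the homeobox, T-box and bHLH families, showed calls in both directions. Of 27 such genes, 22 had a mean of at least 1 TPM, 12 of these were beyond 2-fold lower in replicate 1 and 2 higher in replicate 1, with 8.66% and 8.97% of all genes called in these directions. Some of the 22, En1 among the called, passed that limit only through the library where they were high. At 1 TPM or more in both libraries, 11 of 19 were lower in replicate 1 and 1 higher, against 8.21% and 6.96% of all genes so limited. With the GC trend removed, 7 of the 22 were lower and 2 higher in replicate 1, against 6.62% and 4.29% of all genes. The median log2 ratio of the 22 was -1.20, and -0.46 over those with a finite ratio when the GC trend was removed. Tbx3, required for the mammary placodes and mutated in ulnar-mammary syndrome in people, stood at 14.8 TPM in replicate 1 and 63.5 TPM in replicate 2, and its relative Tbx2 at 7.44 and 21.4 TPM. Msx1 and Msx2, also active in the mammary bud, stood at 8.13 and 19.2 TPM and at 6.00 and 15.5 TPM. Twist1 stood at 19.2 and 74.8 TPM, Twist2 at 24.4 and 57.2 TPM, and Prrx2, a limb and skin mesenchyme gene, at 23.3 and 40.8 TPM. All 7 were among the 12 called lower in replicate 1. The other 5 included the Iroquois genes Irx3, at 4.96 TPM in replicate 1 and 25.2 TPM in replicate 2, and Irx5, at 6.99 and 19.9 TPM. Shox2, a gene of the proximal limb, stood at 6.79 and 31.6 TPM, Emx2, which acts in the urogenital tract, at 1.18 and 5.15 TPM, and En1, a marker of ventral limb ectoderm and of dorsal skin fibroblasts, at 0.74 and 3.02 TPM.

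Tbx15 lay in the opposite direction. This gene, a gene of mesenchyme, fat and fast muscle fibres, stood at 29.2 TPM in replicate 1 and 6.62 TPM in replicate 2, a log2 count ratio of 2.30 (2.17 to 2.43). The limb-type genes were low in both libraries. Tbx5, of the forelimb, stood at 1.13 and 1.45 TPM, and the hindlimb genes Tbx4 and Pitx1 at 0.55 and 0.17 TPM and at 0.48 and 0.38 TPM. Genes of the head and forebrain, where Hox genes are silent, were near 0. Of 8, 0 reached a mean of 1 TPM, their sum was 0.39 TPM in replicate 1 and 0.91 TPM in replicate 2, and Otx2 and Pax6 had no fragment.

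**Figure D4:**
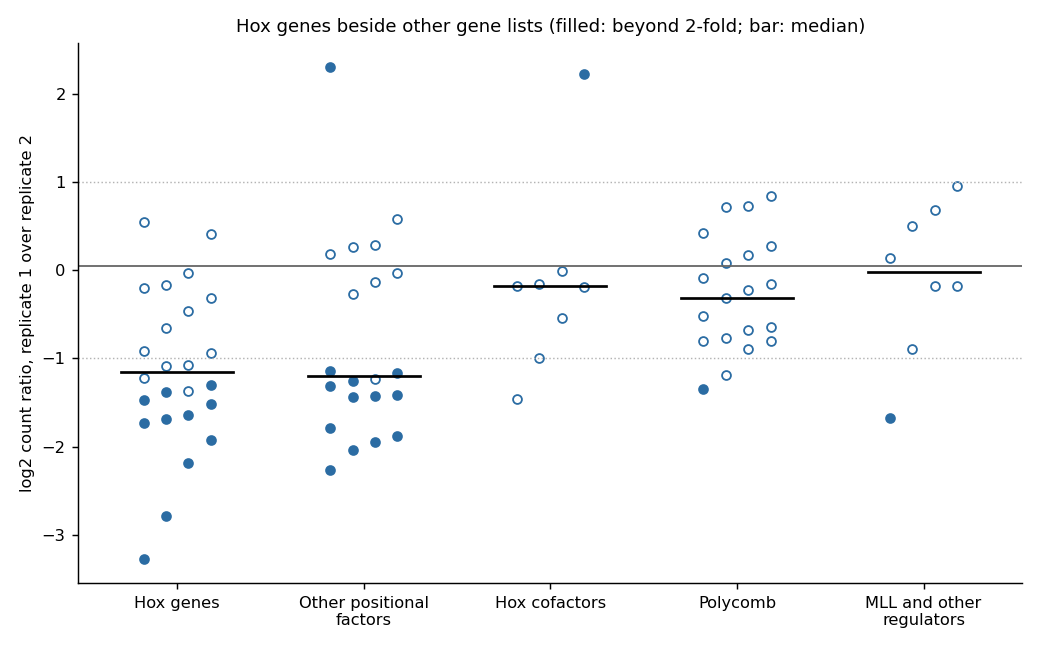
Log2 ratio of scaled counts, replicate 1 over replicate 2 (vertical axis), of each gene with a mean of at least 1 TPM in 5 gene lists (horizontal axis); filled points lie wholly beyond 2-fold, 4 genes are not drawn but count in the medians, short bars are list medians and the solid line is the median of all protein-coding genes. The medians of the Hox genes (-1.16) and the other positional factors (-1.20) lie below those of the cofactors (-0.18), Polycomb genes (-0.32) and MLL and other regulators (-0.02).

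Markers of other tissue also differed between the libraries, though not in every list. Besides the muscle and keratinocyte genes, 4 of 5 brown adipocyte markers were beyond 2-fold higher in replicate 1, against 8.97% of all genes, with a list sum of 1609 TPM and 525 TPM in replicate 2. Fibroblast markers, from cells known to keep a Hox pattern, summed to 2169 TPM in replicate 1 and 1666 TPM in replicate 2. Dcn alone took 951 and 485 TPM of these sums. Of the 6, Dcn and Lum (2 genes) were beyond 2-fold higher in replicate 1, against 8.97% of all genes. With the GC trend removed 0 were, against 4.29%. The other way, Col1a1 and Col1a2 had lower scaled counts in replicate 1, with log2 ratios of -0.42 and -0.29. Endothelial markers summed to 714 and 747 TPM and lymphocyte markers to 401 and 691 TPM. With mitochondrial genes and the 9 skeletal muscle markers left out of the totals, 9 Hox genes in place of 11 were beyond 2-fold. All of these Hox genes were lower in replicate 1, against 6.06% of all genes, and Hoxa3 and Hoxd9 were no longer called. The part of tissue makeup beyond this change of totals was not tested.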

How the data were processed

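Gene and transcript tables were used as deposited, with expected counts, TPM, FPKM and the isoform percent of each transcript per the file headers, on mm10. A single junction table, on mm9, holds read counts as deposited. Sources used here do not give the aligner, the quantifier or the strand handling. Names, coordinates, exons and GC content came from GENCODE M21, which named 42462 gene IDs and is later than the M4 release that the labels give, and sequences from RefSeq (GRCm38.p6). The 97 spike-in entries and 26248 entries with a number for a name stayed out of gene totals.

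Counts were rounded, scaled by gene totals, and compared with 95% Clopper-Pearson intervals. Genes needed a mean of 1 TPM. A library with 3 fragments or fewer was at the floor. GC trends were medians in 20 bins of all genes tested. Scaling factors came from edgeR 4.0.16 and DESeq2 1.42.0 (R 4.3.3), and the rest was done in Python 3.11.15 (scipy 1.17.1, pandas 2.3.3, matplotlib 3.10.9, numpy 2.4.6). Alternatives changed scaling, GC, thresholds, unit and replicates. Totals without mitochondrial genes and the 9 skeletal muscle markers were added after seeing the data. A few genes are not reported here, though they count in totals. The other Hox genes were named, with up to 5 of the highest and the called or undetected members of other lists, and Ezh1, Ezh2, Tbx4, Tbx5 and Pitx1 were named after their values were seen. The members and lists were chosen with earlier results of these data known.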

Additional observations from a re-analysis of the deposited data

How the results depend on the processing

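Detection of Hox genes was 25 at 1 TPM, 27 at 0.5 TPM, 25 by FPKM or posterior mean TPM, 28 by more than 3 counts, 10 at 5 TPM, and from 25 to 26 with either replicate alone. The number of Hox genes beyond 2-fold, 11 with total counts, was 13 with edgeR's TMM factors, 14 with DESeq2 size factors, 12 with the GC trend removed, 16 at 1.5-fold, 15 by the TPM ratio, 11 without the filter and 9 without mitochondrial and muscle genes, which was chosen after seeing the data. The share of all genes called lower in replicate 1, 8.66% with total counts, was 9.98% with TMM, 11.2% with DESeq2, 6.62% with the GC trend removed, 19% at 1.5-fold, 15.4% by the TPM ratio and 6.06% without mitochondrial and muscle genes. The number was 17, against 31.8% of all genes, with spike-in totals, which moved the median log2 ratio of all genes to -0.72 and that of the Hox genes to -1.92. Under each of these, 0 Hox genes were called higher in replicate 1. Hoxd9 lost its call with the GC trend removed and without mitochondrial and muscle genes, Hoxa3 without mitochondrial and muscle genes, and Hoxd3 by the TPM ratio. The cause was not tested. The median difference of log2(TPM + 1), -0.96, ranged from -1.23 with TMM factors on counts to -0.42 over all 39 Hox genes. The dominant transcript was the same in 12 of 19 genes, and in 7 of the 10 above 5 TPM. Cluster and paralog shares by FPKM or posterior mean TPM moved by less than the spread between the libraries. The share of groups 5 to 8 ranged from 39.6% to 58.0% with a library left out.

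No paired analysis was possible because both libraries belong to a single group. With 2 libraries, calls rest on counting error alone. Hoxc11, Hoxc13 and Hoxd1, near the floor, were left without a ratio.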
